A study of Mus musculus with 2 samples.

Results

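The 8 members of a group of complement genes were followed through the immune cells of the mouse adrenal gland: C1qa, C1qb, C1qc, C4b and C2 of the classical pathway, Cfp of the alternative pathway, and the anaphylatoxin receptors C3ar1 and C5ar1. They were taken from a list of gene names and not by a threshold on their values, although earlier results of these data were known when the list was made, and are 8 of the 32285 features counted in each library. CD45+ cells, CD45 being the surface protein carried by nearly all leukocytes, had been sorted from the adrenal glands of untreated C57BL/6 mice at 7 weeks of age and run on a droplet platform that tags transcripts at the 3′ end with unique molecular identifiers (UMIs). The groups were female and male mice, with 1 library each. No source used here gives the number of animals behind a library, and no gene had been altered in either group. After filtering, 3693 female cells with 15020494 UMIs and 2450 male cells with 9014391 UMIs remained, with medians of 3491 and 2988 UMIs per cell, and 2 cell barcode sequences occurred in both libraries. With 1 library per sex, a difference between the sexes has no replicate check, and every interval given here covers counting error only.

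Complement is a cascade of plasma proteins that tags microbes, immune complexes and dying cells for removal. C1q, built from A, B and C chains, is the recognition subunit of the classical pathway. Once bound, C1 cleaves C4 and then C2 to form an enzyme that splits C3, whereas properdin, encoded by Cfp, stabilizes the corresponding enzyme of the alternative pathway. Cleavage of C3 and C5 releases C3a and C5a, small peptides sensed by the receptors C3aR1 and C5aR1 on myeloid cells. Most complement proteins of the plasma come from the liver, but C1q is made largely by macrophages and related cells, and properdin by myeloid cells.

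The C1q genes lie side by side on the minus strand of chromosome 4 within 18675 bases, C1qb at chr4:136880129-136886187, C1qc at chr4:136889804-136893065 and C1qa at chr4:136895917-136898803 (GRCm38, GENCODE vM21). C4b (chr17:34728380-34743882) and C2 (chr17:34862604-34898265) share the major histocompatibility complex on chromosome 17. C3ar1 is at chr6:122847138-122856161, C5ar1 at chr7:16246743-16259540 and Cfp at chrX:20925454-20931555, all 8 on the minus strand. Their identifiers are ENSMUSG00000036887 (C1qa), ENSMUSG00000036905 (C1qb), ENSMUSG00000036896 (C1qc), ENSMUSG00000073418 (C4b), ENSMUSG00000024371 (C2), ENSMUSG00000040552 (C3ar1), ENSMUSG00000049130 (C5ar1) and ENSMUSG00000001128 (Cfp). Of the windows of 55 bases, the length of the cDNA read, in the last 500 bases of the C4b transcript, 35.2% also occur in its near copy C4a, so the C4b counts carry that uncertainty. The other members shared no such window with another gene. C2 overlaps Zbtb12 on the opposite strand.

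For 5 of the 8 members (C1qb, C1qc, C3ar1, C5ar1 and Cfp) the promoter was found in the RefSeq table of GRCm38.p6. The C1qc and C5ar1 windows lie partly inside the transcripts given by GENCODE, so their distances from a start site are uncertain and they are not described further, whereas the C3ar1 window overlaps its transcript by only its last few bases. The 250 bases before the RefSeq start site are printed for C1qb and C3ar1, whose levels followed each other closely across cell classes, and for Cfp, whose levels followed another order. Capitals mark the core GAGGAA bound by PU.1, the lineage factor of myeloid cells, or the half-site TGCTGA bound by Maf factors, on either strand.
C1qb, chr4:136886201-136886450, minus strand: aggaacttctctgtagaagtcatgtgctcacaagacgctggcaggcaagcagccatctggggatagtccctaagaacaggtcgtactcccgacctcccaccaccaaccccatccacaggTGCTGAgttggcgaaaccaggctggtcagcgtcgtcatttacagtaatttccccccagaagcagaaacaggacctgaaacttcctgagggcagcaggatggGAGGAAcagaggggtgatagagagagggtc
C3ar1, chr6:122856158-122856407, minus strand: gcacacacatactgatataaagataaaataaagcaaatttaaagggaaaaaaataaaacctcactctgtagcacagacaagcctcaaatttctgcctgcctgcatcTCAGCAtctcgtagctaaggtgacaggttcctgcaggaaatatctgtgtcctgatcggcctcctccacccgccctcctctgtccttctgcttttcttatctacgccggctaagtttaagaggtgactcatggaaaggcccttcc
Cfp, chrX:20931556-20931805, minus strand: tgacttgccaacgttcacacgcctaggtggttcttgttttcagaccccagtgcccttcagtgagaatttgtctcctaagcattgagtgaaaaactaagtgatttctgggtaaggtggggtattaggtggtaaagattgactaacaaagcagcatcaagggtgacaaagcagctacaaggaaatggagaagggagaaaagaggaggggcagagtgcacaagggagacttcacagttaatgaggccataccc
GAGGAA was present 30 bases before the C1qb start, against 23.3% of 32851 mouse promoter windows of the same length that hold it. TGCTGA was present 131 bases before the C1qb start and, on the opposite strand, 144 bases before the C3ar1 start, against 16.1% of all windows. Neither motif was present in the Cfp window. Of 2 general promoter motifs searched in the same way, CCAAT (33.8% of all windows) was present in none of the printed windows and TATAA (22.8%) only in that of C3ar1, 235 bases before its start. The matches did not overlap, and they describe letters, not occupied sites.

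Cells were grouped with the complement genes held out of the clustering, so that no class was made from them. Of 21 clusters, 20 were named from marker genes. Adrenal gland macrophages (AGMs) were 5 clusters with 832 female and 794 male cells: Lyve1-high macrophages (97 and 165 cells), Aldh1a2-high macrophages (88 and 101 cells) and 3 other clusters, called here by a leading gene as Cxcl14 (242 and 237 cells), AA467197 (252 and 185 cells) and Mmp12 (153 and 106 cells) and together as other macrophages. All 12 macrophage markers had UMIs in the AGMs of both libraries, with a summed level of 35833 CPM (UMI counts scaled to a common total) in the female and 23785 CPM in the male library. There the T cell markers summed to 79.5 and 25.9 CPM, adrenal cortex markers to 232 and 216 CPM, B cell markers to 364 and 310.2 CPM and monocyte markers to 843 and 679.6 CPM. The same 12 macrophage markers summed to 40768 and 28864 CPM in other macrophages and 16296 and 17293 CPM in Lyve1-high macrophages, but to 3136 and 3375 CPM in Aldh1a2-high macrophages, below the 5930.3 and 6105 CPM of classical monocytes. Lyve1-high macrophages were 2.63% of female and 6.73% of male cells and Aldh1a2-high macrophages 2.38% and 4.12%. A macrophage-like cluster of low depth (63 female and 143 male cells, medians of 775 and 669 UMIs) could not be named and was kept apart. Levels in CPM are the raw UMIs of a gene summed over the cells of a class, relative to all UMIs of that class. As 1 tag stands for 1 transcript, levels were not divided by gene length, and they are compared between classes rather than between genes.

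C1q was a macrophage transcript in both sexes. The summed level of C1qa, C1qb and C1qc was 13878 CPM (95% interval 13754 to 14004) in female AGMs and 13586 CPM (13454 to 13719) in male AGMs. AGMs held 94.1% of the 50482 female and 92.7% of the 43617 male C1q UMIs. T and NK cells, which should lack C1q, gave 97.3 CPM (90.1 to 105) in the female and 129 CPM (118 to 142) in the male library, so that AGMs were 143-fold (132 to 154) and 105-fold (95.5 to 116) above that background. C1qa alone was at 5063 and 4884 CPM in female and male AGMs, C1qb at 5292 and 5175 CPM, and C1qc at 3524 and 3527 CPM.

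C1q was present in nearly every macrophage outside the Aldh1a2-high subset. After a draw of 1000 UMIs from each cell, 98.7% of 639 female and 99.8% of 523 male other macrophages held a C1q UMI, and 98.7% of 75 female and 99.2% of 132 male Lyve1-high macrophages did so. All 3 chains were seen together in 91.9% (female) and 93.3% (male) of the other macrophages. In T and NK cells, whose median depth was 4036 and 4396 UMIs against 3654 and 2866 UMIs in the AGMs, the share with a C1q UMI was 8.29% and 11.8% at 1000 UMIs per cell, and 26.3% and 31.4% at full depth. The median AGM held 14 C1q UMIs per 1000 in the female and 13 in the male library.

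**Figure D1:**
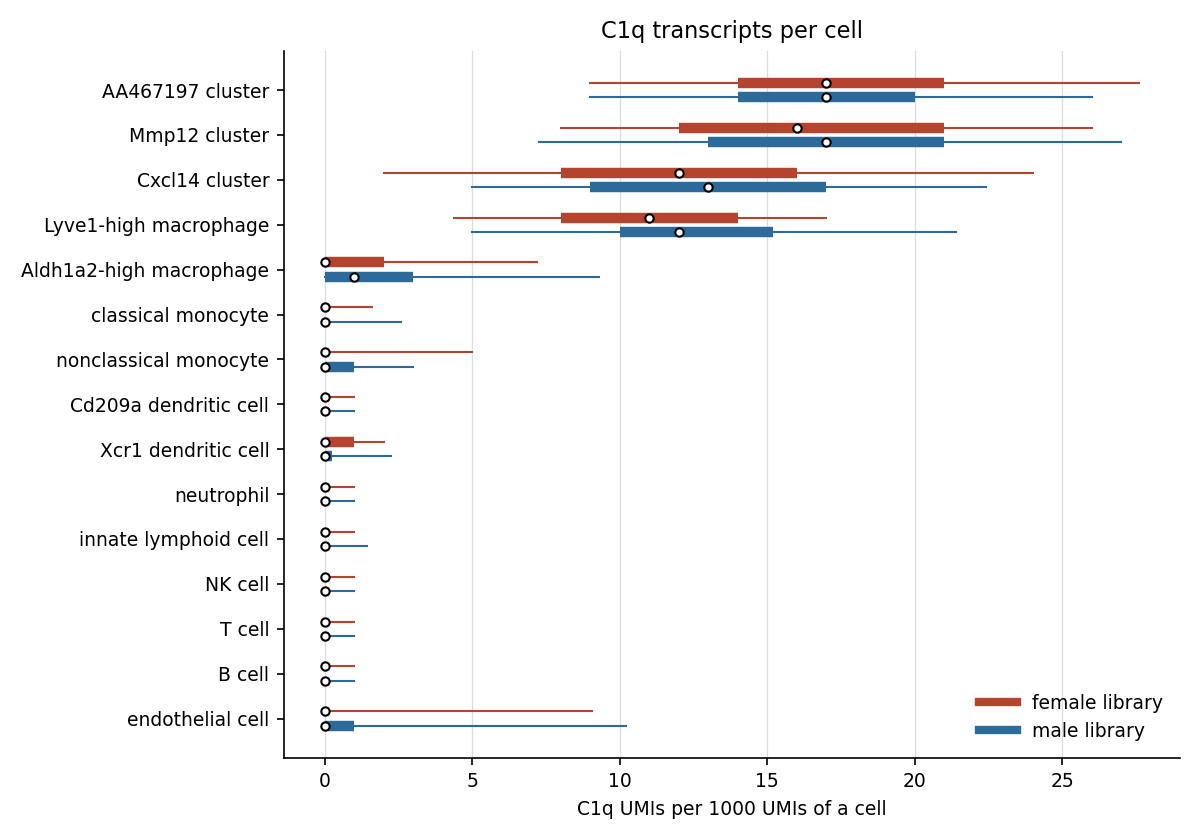
C1q UMIs (C1qa, C1qb and C1qc together) among 1000 UMIs drawn from each cell (horizontal axis) for 15 cell classes (vertical axis), female library in red and male in blue; the thin line runs from the 5th to the 95th percentile of cells, the thick line covers the middle 50% and the open circle is the median. The medians lie at 11 to 17 UMIs in 4 of the 5 macrophage clusters, at 0 or 1 in the Aldh1a2-high subset and at 0 in all other classes.

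The order of the macrophage subsets was the same in both libraries apart from its top. The AA467197 cluster stood at 16286 CPM (16076 to 16499) in the female and 17095 CPM (16836 to 17357) in the male library, and the Mmp12 cluster at 16416 CPM (16120 to 16716) and 16669 CPM (16337 to 17007), and their intervals overlapped. The Cxcl14 cluster followed at 12619 and 13951 CPM and the Lyve1-high subset at 11250.3 and 12711 CPM, each apart from its neighbours. Aldh1a2-high macrophages were far lower, at 1499 CPM (1362 to 1647) and 1691 CPM (1569.8 to 1819). Other macrophages exceeded them 10.2-fold (9.32 to 11.3) in the female and 9.50-fold (8.82 to 10.2) in the male library, although the Aldh1a2-high subset was itself 15.4-fold (13.6 to 17.4) and 13.1-fold (11.6 to 14.7) above T and NK cells. With each cell classed by its own marker UMIs (a per-cell marker gate), C1qa, C1qb and C1qc of this subset moved over 1.5-fold in both libraries. The macrophage markers of this subset were lower than those of other macrophages as well, and their part in the C1q difference was not tested. Within it, 41.8% of 79 female and 52.6% of 95 male cells held a C1q UMI after the draw, and 49.1% and 38.6% of its C1q UMIs came from 5 cells. Of the 55 female and 47 male AGMs without a C1q UMI, 46 and 45 were Aldh1a2-high cells.

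The mix of the 3 chains also differed between macrophage subsets, though not every contrast had the same direction in both libraries. C1qb made up 42.4% (41.4 to 43.4) of the C1q UMIs of the Cxcl14 cluster in the female and 42.0% (40.9 to 43.0) in the male library, but 32.2% (30.5 to 34.0) and 32.1% (30.7 to 33.4) in Lyve1-high macrophages. C1qa was at 31.9% in the Cxcl14 cluster of both libraries, against 38.6% (38.0 to 39.2) and 37.0% (36.2 to 37.7) in the AA467197 cluster and 37.9% and 39.7% in the Lyve1-high subset. For C1qa the Lyve1-high subset was thus below the AA467197 cluster in the female library and above it in the male. C1qc lay between 24.7% and 26.2% in the 3 clusters of other macrophages and at 29.9% (28.2 to 31.7) and 28.2% (26.9 to 29.6) in the Lyve1-high subset. For C1qb the intervals of the Cxcl14 cluster and the Lyve1-high subset did not overlap, whereas those of the female and male libraries overlapped within each. For C1qa in the AA467197 cluster the female and male intervals did not overlap. In T and NK cells, C1qa, C1qb and C1qc made up 37.0%, 38.3% and 24.6% of the C1q UMIs of the female library, close to the 36.5%, 38.1% and 25.4% of its AGMs. In the male library the background held 41.6%, 35.6% and 22.8%, and the AGMs 35.9%, 38.1% and 26.0%.

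**Figure D2:**
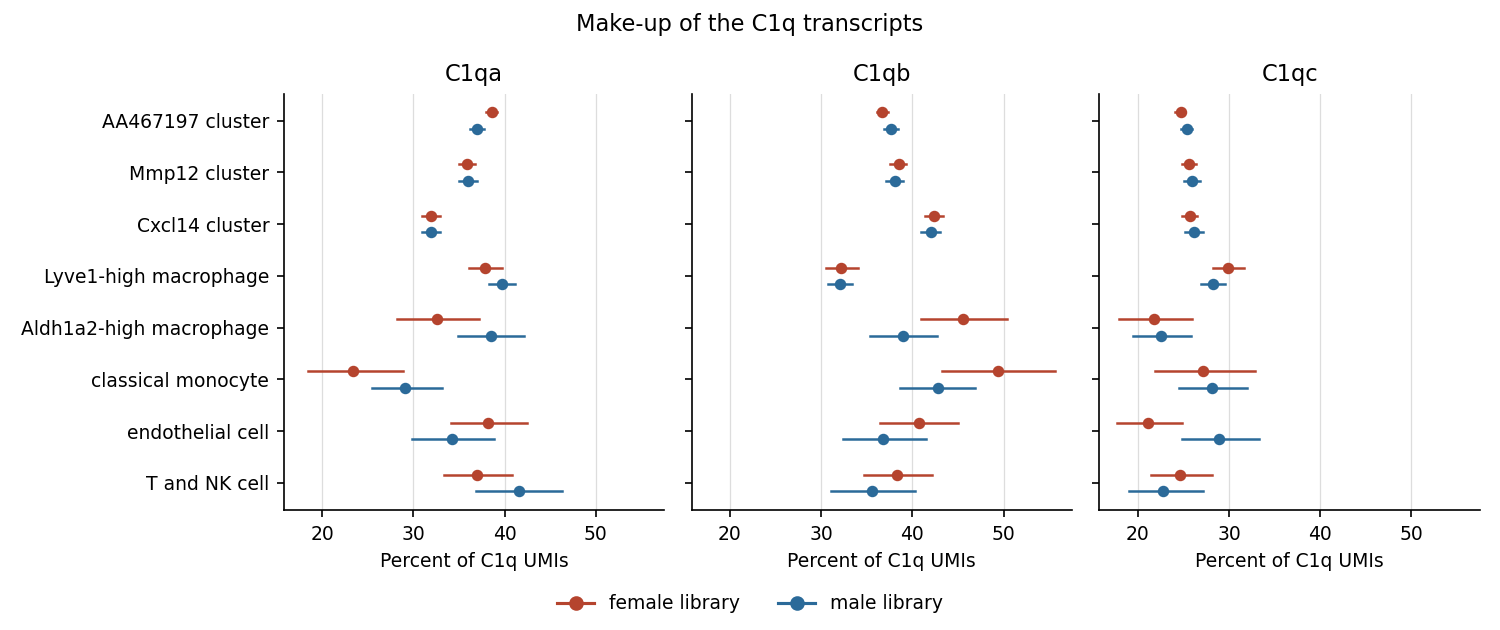
Share of C1qa, C1qb and C1qc in the C1q UMIs (horizontal axes, percent) of 8 cell classes (vertical axis), female library in red and male in blue, with exact binomial 95% intervals as lines. C1qb is at 42.4% and 42.0% in the Cxcl14 cluster and at 32.2% and 32.1% in Lyve1-high macrophages.

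Monocyte-like cells carried little C1q. Classical monocytes stood at 359 CPM (317 to 404) in the female and 1203 CPM (1107 to 1306) in the male library, and nonclassical monocytes at 611 CPM (506 to 732) and 702 CPM (572 to 852). Over all monocyte-like cells, AGMs were higher 33.8-fold (30.6 to 37.5) in the female and 12.5-fold (11.6 to 13.5) in the male library, and the male value rose to 25.2-fold (22.6 to 28.2) when complement genes were left in the clustering and to 28.8-fold (25.4 to 32.7) under a mitochondrial ceiling of 5%. The male monocyte value rested on few cells, since 5 monocyte-like cells held 67.4% of its C1q UMIs, against 32.3% in the female library. Classical monocytes with a C1q UMI were 16.9% of 189 female and 22.0% of 109 male cells at 1000 UMIs per cell, and 37.2% and 51.4% at full depth. Classical monocytes with 5 or more macrophage markers were at 441 CPM in the female and 1740 CPM in the male library, and those with 2 to 4 markers at 177 CPM (126 to 242) and 187 CPM (125 to 268). T and NK cells with 2 to 4 macrophage markers were at 237 CPM (207 to 269.8) and 183 CPM (149.8 to 220.4). Their intervals overlapped those of the classical monocytes with as many markers. Without the cells that had 5 or more macrophage markers, a choice made after seeing the data, AGMs exceeded monocytes 64.7-fold (51.7 to 82.2) in the female and 46.4-fold (37.2 to 58.6) in the male library. The monocyte levels behind these ratios were thus in part no higher than in T and NK cells with as many markers.

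Of the members with at least 50 UMIs in either class of a library, 7 of 7 were past 2-fold higher in AGMs than in monocytes of the female library, where 13.2% of 6741 genes passed in that direction. Of these 7, C3ar1, Cfp and C4b reached 50 UMIs in AGMs alone, the class in which they were high, so that the count describes the members and supports nothing further. With 50 UMIs required in both classes 4 of 4 passed (C1qa, C1qb, C1qc and C5ar1), against 3.40% of 2677 genes, a rule chosen after seeing the data. In the male library 5 of 7 passed, against 12.5% of 6433 genes, with C3ar1, C5ar1 and C4b at 50 UMIs in AGMs alone. Under the stricter rule 3 of 4 passed there, the C1q genes, against 3.85% of 1871 genes. Those of the 7 that did not pass were Cfp at 1.37-fold (1.09 to 1.74) and C4b at 1.29-fold (0.779 to 2.25). Both rested on few cells, since 5 monocyte-like cells held 55.7% of the 88 Cfp and 94.4% of the 18 C4b UMIs of the male monocytes. In monocytes with at most 4 macrophage markers, the male ratio of Cfp was 1.75 (1.21 to 2.61) and that of C4b 5.03 (1.36 to 42.1), on 30 and 2 monocyte UMIs, and with complement genes left in the clustering both were past 2-fold, at 2.46 (1.84 to 3.33) and 6.26 (2.39 to 23.3). C3ar1 was 10.3-fold (7.56 to 14.3) and 10.9-fold (7.04 to 18.0) higher in AGMs, and C5ar1 3.63-fold (2.86 to 4.67) and 4.22-fold (2.96 to 6.23).

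The other named classes were below the Aldh1a2-high subset, with 1 exception, although the interval of female plasmacytoid dendritic cells overlapped that of the subset. Dendritic cells were at 201 and 375 CPM and B cells at 114 and 97.1 CPM. The innate lymphoid cell-like cluster was at 145 and 223 CPM, and mast cell and basophil markers summed to more in it (10155 and 2854 CPM) than its own markers did (3132 and 2439 CPM). The 20 female plasmacytoid dendritic cells were at 1315 CPM (1071 to 1598), nearly all of it from 5 cells, and the 8 male ones held 0 UMIs, which at 3 counts allows up to 148 CPM. Neutrophils were at 930.0 CPM in the female library, where 5 of 48 cells held 91.8% of the UMIs, and at 247 CPM in the male library. In the 37 female and 41 male neutrophils with UMIs of at most 1 macrophage marker the level was 182 CPM (90.7 to 325) and 211 CPM (118 to 349). The exception was the endothelial-like cells, at 3665 CPM (3359 to 3989.9) and 3064 CPM (2789 to 3359). All 12 macrophage markers had UMIs among these 42 female and 46 male cells, with a summed level of 7081 and 8749 CPM, and 5 cells held 91.1% and 80.0% of their C1q UMIs. In the 13 female and 16 male endothelial-like cells with UMIs of at most 1 macrophage marker, C1q was at 123 CPM (25.4 to 360.3) and 177 CPM (57.5 to 413).

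**Figure D3:**
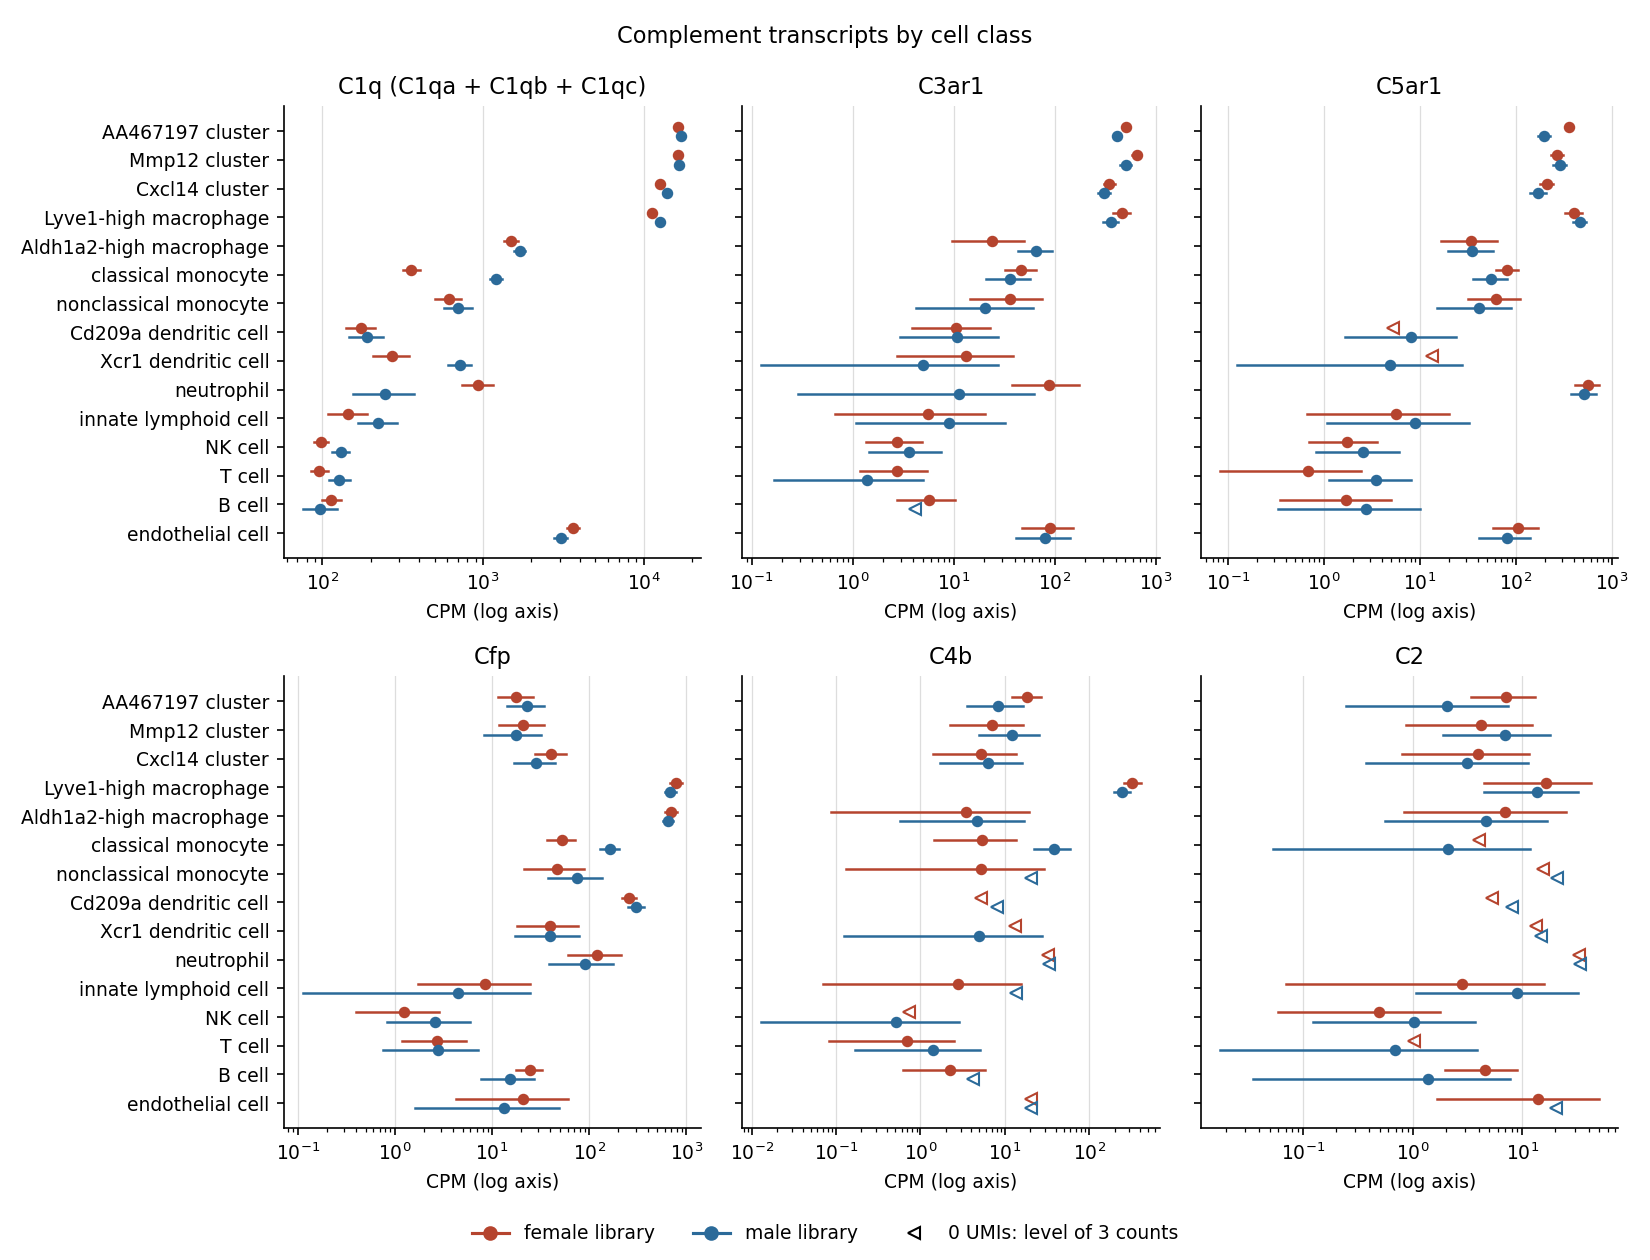
Level of C1q (C1qa, C1qb and C1qc summed) and of C3ar1, C5ar1, Cfp, C4b and C2 in CPM (horizontal log axes, which differ between panels) by cell class (vertical axis), female library in red and male in blue, with exact Poisson 95% intervals as lines; open triangles mark classes with 0 UMIs at the level that 3 counts would give. C1q and C3ar1 are high in 4 macrophage clusters, Cfp in Lyve1-high and Aldh1a2-high macrophages and Cd209a dendritic cells, C4b in Lyve1-high macrophages, and C5ar1 in neutrophils and 4 macrophage clusters.

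The receptor for C3a followed the C1q pattern. C3ar1 was at 457 CPM (435 to 480.4) in female and 352 CPM (331 to 374) in male AGMs. The Mmp12 cluster was at 645 CPM (587 to 706) and 503 CPM (446 to 564), apart from the AA467197 cluster in the female library (511 CPM, 475 to 550.0) but overlapping it in the male (413 CPM, 374 to 456), and was 1.86-fold (1.59 to 2.17) and 1.63-fold (1.35 to 1.96) above the Cxcl14 cluster. Other and Lyve1-high macrophages did not separate, with ratios of 1.09 (0.902 to 1.34) and 1.13 (0.938 to 1.37). Aldh1a2-high macrophages were at 24.1 CPM (9.68 to 49.6) and 65.5 CPM (43.5 to 94.6), on 7 and 28 UMIs, of which 5 cells held 100% and 57.1%. At 1000 UMIs per cell, 39.7% (female) and 34.6% (male) of the other macrophages held a C3ar1 UMI, against 0.392% and 0.137% of T and NK cells. At full depth the shares were 74.8% and 66.9%, against 1.22% and 1.21%. Monocytes (44.5 and 32.2 CPM) and dendritic cells (11.3 and 8.73 CPM) were far below the AGMs.

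Across 30 points, 15 cell classes in each of the 2 libraries, C3ar1 was the gene most like the summed C1q level among 8677 genes, with a Pearson correlation of 0.97 on log2(CPM + 10). It was followed by Apoe, an apolipoprotein, at 0.95, the scavenger receptor Stab1 at 0.95, the organic anion transporter Slco2b1 at 0.95 and Axl, a receptor used in the uptake of dying cells, at 0.94. Apoe was also one of the markers used to name macrophages. C1qa, C1qb and C1qc were most like each other, at 0.99 for each pair. The points share libraries, and the macrophage clusters set most of the range. Within a class the relation was weak: over other macrophages after the draw, the correlation of C1q with C3ar1 was 0.13 over 639 female and 0.06 over 523 male cells, whereas those of the C1q chains with each other were 0.31 to 0.35 and 0.22 to 0.24.

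C5ar1, the receptor through which C5a attracts neutrophils, was shared between neutrophils and macrophages. Neutrophils were highest, at 558 CPM (415 to 734) in the female and 517 CPM (379 to 689.6) in the male library, with 53.7% and 39.0% of 41 cells each positive at 1000 UMIs per cell, and 62.5% and 58.0% of all cells at full depth. Neutrophils without more than 1 macrophage marker were at 578 CPM (403 to 804) and 479 CPM (332 to 669.7). Lyve1-high macrophages came next at 399.9 CPM (324 to 488) and 462 CPM (395 to 537), and their ratio to neutrophils included 1, with neutrophils 1.40-fold (0.974 to 1.98) and 1.12-fold (0.790 to 1.56) higher. Lyve1-high macrophages exceeded other macrophages 1.35-fold (1.08 to 1.67) and 2.17-fold (1.81 to 2.60). Aldh1a2-high macrophages (34.4 and 35.1 CPM) and monocytes (77.4 and 51.5 CPM) were lower, and dendritic cells held 0 UMIs in the female library, which at 3 counts allows up to 3.78 CPM, and 4 UMIs in the male. T and NK cells were at 1.29 and 2.96 CPM. The genes most like C5ar1 over the 30 points were Siglece (0.92), an inhibitory lectin, Acsl1 (0.92), a fatty acid ligase, and the endotoxin co-receptor Cd14 (0.91).

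Properdin transcripts were high in 2 macrophage subsets, among them the Aldh1a2-high subset that was lowest in C1q and C3ar1. Cfp was at 783 CPM (676 to 903) in female and 684 CPM (602 to 775) in male Lyve1-high macrophages, with 40.0% and 16.9% of these UMIs in 5 cells, and at 691 CPM (599 to 794) and 652 CPM (578 to 734) in Aldh1a2-high macrophages, and the intervals of the subsets overlapped. Other macrophages were at 24.6 CPM (19.2 to 31.0) and 22.9 CPM (17.0 to 30.2). The Lyve1-high subset thus exceeded them 31.9-fold (24.1 to 42.5) and 29.9-fold (22.0 to 41.4), and the Aldh1a2-high subset 28.1-fold (21.3 to 37.4) and 28.5-fold (21.0 to 39.3). A Cfp UMI was present after the draw in 51.9% of female and 45.3% of male Aldh1a2-high cells and in 2.35% and 2.29% of other macrophages, against 0.261% and 0.274% of T and NK cells. At full depth these shares were 69.3% and 78.2%, 8.04% and 6.25%, and 0.772% and 1.21%.

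Cd209a dendritic cells came next in both libraries, at 256 CPM (216 to 301) and 305 CPM (251 to 367), although the 6 UMIs of male plasmacytoid dendritic cells gave an overlapping 295 CPM (108 to 643). They stood 6.41-fold (3.29 to 14.3) and 7.73-fold (3.79 to 18.3) above Xcr1 dendritic cells. B cells were at 24.4 and 15.3 CPM, 13.1-fold (6.89 to 26.5) and 5.74-fold (2.16 to 15.7) above T and NK cells. The genes most like Cfp were Eps8 (0.87), an actin regulator, Gfra2 (0.87), a neurotrophic factor co-receptor, and the chemokine gene Ccl6 (0.85).

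C4b, which encodes the C4 protein cleaved by C1, was concentrated in Lyve1-high macrophages. They were at 326 CPM (258 to 406) in the female and 247 CPM (199 to 304) in the male library and held 60.8% of the 130 female and 66.7% of the 135 male C4b UMIs. The female level moved over 1.5-fold under the per-cell marker gate. Other macrophages were at 12.1 CPM (8.44 to 16.9) and 8.70 CPM (5.24 to 13.6), and the Lyve1-high subset exceeded them 26.9-fold (17.8 to 41.2) and 28.4-fold (17.2 to 49.4). Of the female Lyve1-high UMIs 69.6% came from 5 cells, against 27.8% in the male library, and 17.3% of 75 and 18.2% of 132 cells were positive at 1000 UMIs per cell, and 21.6% and 29.1% of all cells at full depth. T and NK cells held 2 female and 3 male C4b UMIs. The genes most like C4b were Fcna (0.93), a ficolin of the lectin pathway, the folate receptor gene Folr2 (0.92) and Cd209g (0.92), a lectin.

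C2, which encodes the other protein cleaved by C1, was close to the limit of detection. AGMs held 22 female and 15 male C2 UMIs, or 6.43 CPM (4.03 to 9.74) and 5.04 CPM (2.82 to 8.32). T and NK cells held 2 and 3 UMIs (0.287 and 0.887 CPM), and AGMs stood 22.4-fold (5.51 to 197) and 5.69-fold (1.61 to 30.6) above them. Other classes were not apart from AGMs. Female B cells held 8 UMIs, at 4.53 CPM (1.96 to 8.93), and male B cells 1 UMI. On 2 UMIs each, female endothelial-like cells were at 13.8 CPM (1.67 to 49.9) and male innate lymphoid cell-like cells at 8.93 CPM (1.08 to 32.3). A C2 UMI was present after the draw in 0.378% of female and 0.667% of male AGMs, and neutrophils, nonclassical monocytes and dendritic cells held 0 UMIs in both libraries, which at 3 counts allows up to 3.78 and 5.24 CPM in dendritic cells. The same limit was 32.8 and 33.7 CPM in neutrophils and 15.5 and 20.6 CPM in nonclassical monocytes. These limits lie above the AGM level, so 0 UMIs cannot place those 2 classes below AGMs. C2 was the only member with fewer than 50 UMIs in AGMs of both libraries and was not tested there.

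Whether the complement program of AGMs differed between the sexes was asked next. In AGMs as a whole, C1q was at a female to male ratio of 1.02 (1.01 to 1.04), and none of the 7 members with at least 50 UMIs in a library was past 1.5-fold with an interval that excluded 1, against 6.57% of 6907 genes. C3ar1 was at a ratio of 1.30 and C5ar1 at 1.29 (1.17 to 1.43), both higher in the female library by less than that size. The 12 macrophage markers were also higher in female AGMs, at 35833 against 23785 CPM, and their part in these differences was not tested. Cfp was at a ratio of 0.695 (0.614 to 0.787), and it was past 1.5-fold when complement genes were left in the clustering. Within the subsets that carry Cfp its ratio included 1, at 1.14 (0.943 to 1.39) in the Lyve1-high and 1.06 (0.879 to 1.27) in the Aldh1a2-high subset, which together were a larger share of the male library. C4b was at 0.901 (0.688 to 1.18) in AGMs.

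Within each subset taken as a whole, C1q was a little lower in the female library, at 0.955 (0.942 to 0.969) in other macrophages, 0.885 (0.844 to 0.928) in the Lyve1-high and 0.887 in the Aldh1a2-high subset, which rested on 436 and 723 UMIs. Weighted to the same makeup of subsets, the AGM level was 12687 CPM in the female and 13596 CPM in the male library, a ratio of 0.933, opposite in direction to the ratio over all AGMs. None of 6 members tested in other macrophages was past 1.5-fold, against 6.70% of 6090 genes, and none of 7 in Lyve1-high macrophages, against 12.4% of 1123 genes. C5ar1 came closest, at 296 CPM (276 to 316) in female and 212 CPM (194 to 233) in male other macrophages, a ratio of 1.39 (1.24 to 1.56). It stood at 355 against 196 CPM in the AA467197 cluster, 1.81-fold (1.53 to 2.16), but at 270.4 against 288 CPM in the Mmp12 cluster, where the ratio of 0.939 (0.759 to 1.16) included 1. C3ar1 was at 1.24 (1.09 to 1.40) and 1.28 (1.10 to 1.49) in these clusters.

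**Figure D4:**
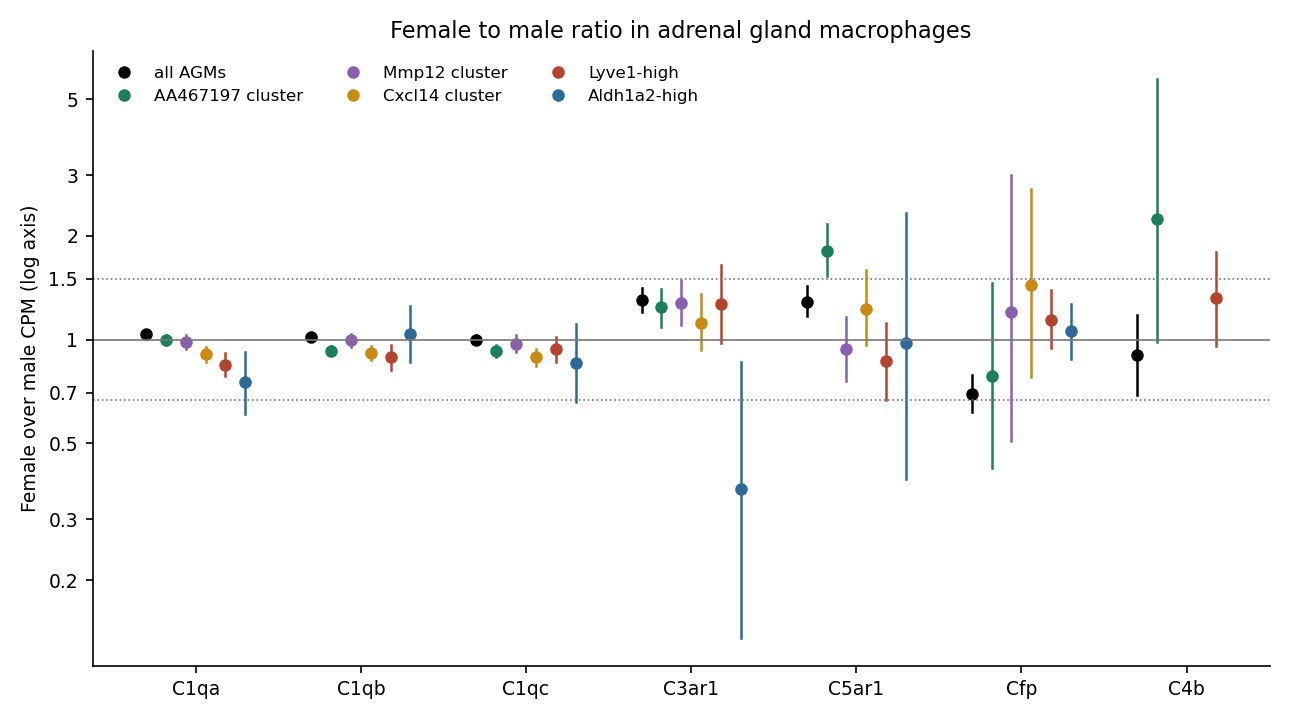
Female over male ratio of CPM (vertical log axis) for 7 members (horizontal axis) in all AGMs (black) and in each macrophage cluster (colours), with exact conditional 95% intervals as lines, for clusters with at least 20 UMIs of the gene; the solid line marks a ratio of 1 and the dotted lines 1.5-fold either way. The C1q chains lie between 0.751 and 1.04, C5ar1 in the AA467197 cluster is past 1.5-fold at 1.81, and C3ar1 in the Aldh1a2-high subset rests on 7 female and 28 male UMIs.

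Classical monocytes differed more. Of 5 members tested 4 were past 1.5-fold, against 6.90% of 2160 genes, all lower in the female library: C1qa at 0.240 (0.176 to 0.322), C1qb at 0.345 (0.277 to 0.428), C1qc at 0.288 (0.215 to 0.382) and Cfp at 0.322 (0.213 to 0.479). Cfp reached 50 UMIs in the male library alone, where it was high (39 female and 77 male UMIs), and among genes with 50 UMIs in both libraries 3 of 3 members, the C1q genes, were past 1.5-fold, against 4.55% of 1364 genes. In the male library 5 of 111 classical monocytes held 78.0% of the C1q and 63.6% of the Cfp UMIs, against 45.0% and 28.2% in 5 of 191 female cells. C5ar1, the other gene tested, was at 1.49 (0.927 to 2.46), with 69.2% of its male UMIs in 5 cells. Among classical monocytes with at most 4 macrophage markers, the C1q ratio was 0.951 (0.578 to 1.58) and the Cfp ratio 0.499 (0.233 to 1.04), on 14 female and 20 male Cfp UMIs.

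The study sets apart AGMs with low MHC class II, the molecules that present antigen to CD4 T cells, so members were compared between low and high cells of the 3 other macrophage clusters. A cell was low at 10 or fewer UMIs of Cd74, H2-Ab1, H2-Eb1 and H2-Aa among 1000, a boundary set from the distribution of that sum over the macrophages. Low cells were 168 of 639 in the female and 18 of 523 in the male library, so that the male values are less precise. C1q was at 15438 CPM in low and 15300.2 CPM in high female cells, a ratio of 1.01 (0.988 to 1.03), and at 14219 and 16135 CPM in male cells, 0.881 (0.827 to 0.938), which became 1.03 as a mean over cells of each cell's level. Over the processing settings tried, the C1q ratio ran from 0.864 to 1.21 in the female library and from 0.435 to 1.03 in the male. C5ar1 was higher in low cells of the female library, at 401 against 257 CPM, 1.56-fold (1.35 to 1.80), and at 253 against 211 CPM in the male, where the interval of the ratio (0.704 to 1.92) included 1. C3ar1 was at 591 against 467 CPM, 1.26-fold (1.13 to 1.41), and at 548 against 402 CPM, 1.37-fold (0.964 to 1.88). Of 5 members tested, C5ar1 of the female library alone was past 1.5-fold, or 1 of 5 against 10.1% of 4898 genes, and none was in the male library, against 9.05% of 4995 genes. Of the 35 C4b UMIs of female other macrophages, 26 lay in low cells (33.6 CPM, against 4.27 CPM in high cells), 65.4% of them in 5 cells, whereas the 19 male UMIs all lay in high cells.

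The 3 clusters did not share 1 pattern. In the Cxcl14 cluster of the female library, low cells had less C1q, 8533 against 13363 CPM, a ratio of 0.639 (0.598 to 0.681), while in the AA467197 cluster the ratio was 1.04 (1.02 to 1.07) and in the Mmp12 cluster 1.04 (0.973 to 1.12). In the AA467197 cluster of the male library, which held 11 of its 18 low cells, low cells had more C1q, 21139 against 16981 CPM, a ratio of 1.24 (1.14 to 1.35) that is opposite in direction to the male ratio over the 3 clusters. C5ar1 was higher in low cells in each female cluster, at 1.72 (1.17 to 2.49), 1.28 (1.07 to 1.53) and 2.09 (1.34 to 3.16) in the same order, although the last rested on 12 low cells, 5 of which held 85.2% of the UMIs. In Lyve1-high macrophages C4b was higher in low cells, at 872 against 99.2 CPM in the female library, 8.79-fold (4.98 to 16.4), with 94.7% of the UMIs of the low cells in 5 cells, and 452 against 185 CPM in the male, 2.44-fold (1.53 to 3.86), with 52.9% in 5 cells. The shares of cells with a C4b UMI at 1000 UMIs per cell were 41.2% of low and 10.3% of high female cells, and 29.4% and 14.3% of male cells. These female low cells were 17 of 75 and the male ones 34 of 132. Within high cells of the 3 other clusters, C1q was at a female to male ratio of 0.948 (0.934 to 0.963), C3ar1 at 1.16 (1.06 to 1.28) and C5ar1 at 1.22 (1.07 to 1.38). Within low cells, of which the male library held 18, the C1q ratio was opposite in direction, at 1.09 (1.02 to 1.16), with C1qa at 1.15 (1.03 to 1.28), C1qb at 1.13 (1.02 to 1.26) and C1qc at 0.945 (0.837 to 1.07). C3ar1 was at 1.08 (0.776 to 1.53) and C5ar1 at 1.58 (0.985 to 2.71) in these low cells, and both intervals included 1.

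**Figure D5:**
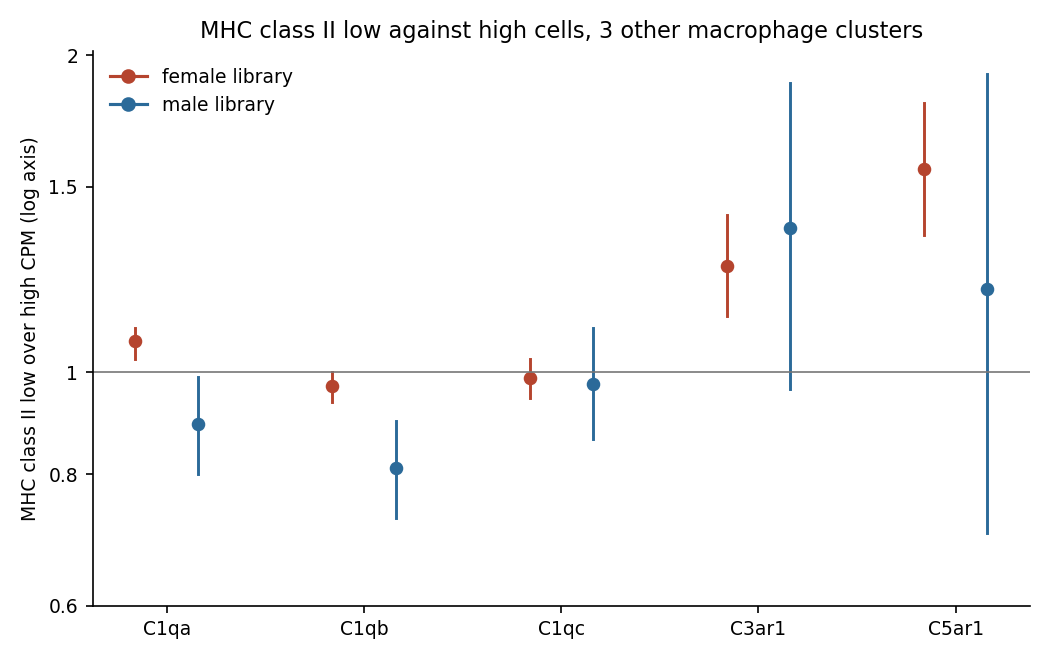
Ratio of CPM in MHC class II low over high cells (vertical log axis) of the 3 other macrophage clusters for the 5 members tested (horizontal axis), female library in red and male in blue, with exact conditional 95% intervals as lines. The C1q chains stay between 0.810 and 1.07, and C5ar1 in the female library is at 1.56.

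The wider complement system was represented unevenly across its pathways. Of 44 other listed complement genes, 13 (29.5%) had 50 UMIs or more in the AGMs of a library, against 21.4% of all 32285 features. By pathway, 20 of all 52 listed genes (38.5%) reached 100 CPM in both libraries in some class, against 9.85% of all features: 4 of 10 of the classical pathway, 1 of 9 of the lectin pathway, 3 of 4 of the alternative pathway, 0 of 7 of the terminal pathway, 8 of 10 receptors and 4 of 12 regulators. C3, the central component, was at 205 and 178 CPM in classical monocytes and at 18.0 and 8.70 CPM in other macrophages. Fcna, a ficolin, was found in Lyve1-high macrophages at 329.8 and 1061 CPM, together with the protease gene Cfd at 119.6 and 135 CPM.

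Among receptors, C5ar2, the second C5a receptor, was highest in neutrophils at 197 and 146 CPM, like C5ar1. The neutrophils were only 48 female and 50 male cells with 91394 and 88971 UMIs of all genes. The ranks of these other genes are given without intervals, so near ties are not settled. The complement receptor 3 subunit Itgam was highest in female neutrophils (449 CPM) and male nonclassical monocytes (406 CPM) and at 433 and 393 CPM in Aldh1a2-high macrophages, its partner Itgb2 was highest in nonclassical monocytes at 621 and 626 CPM, and Itgax of complement receptor 4 stood at 134 and 242 CPM in other macrophages. Cd93, a C1q-related receptor, was at 266 and 241 CPM in other macrophages and Lrp1, a scavenger receptor, at 513 and 495 CPM in nonclassical monocytes. Of the regulators that protect host cells, Cd55 was highest in B cells (273 and 319 CPM), Cd59a in endothelial-like cells (124 and 161 CPM) and Cr1l in NK cells (112 and 121 CPM). The endothelial-like cells were only 42 female and 46 male cells.

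Of the 13 other genes tested between the sexes in AGMs, 3 were past 1.5-fold higher and 3 lower in the female library, against the same 6.57% of all genes. Of these 6, C3, Vsig4 and Colec12 reached 50 UMIs only in the library where they were high, and among genes with 50 UMIs in both libraries 3 of 10 (Fcna, C5ar2 and Itgax) were past 1.5-fold, against 3.88% of 6181 genes. The higher ones were C3 at 1.92 (1.26 to 3.00), C5ar2 at 1.62 (1.25 to 2.10) and Vsig4, a C3b receptor of resident macrophages, at 3.29 (1.93 to 5.87). The lower ones were Fcna at 0.188 (0.147 to 0.238), Itgax at 0.651 (0.573 to 0.739) and Colec12, a scavenger collectin, at 0.489 (0.316 to 0.747). Fcna stayed lower within the Lyve1-high subset, at 0.311 (0.241 to 0.396), and so did Colec12 at 0.414 (0.222 to 0.730). Vsig4 was at 144 and 35.7 CPM there, a ratio of 4.04 (2.08 to 8.32) on 35 and 13 UMIs. Vsig4 and Colec12 were below the level set for naming genes and were named after their values were seen.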

How the data were processed

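The deposited files held whole-number UMI counts for 32285 features per cell barcode, 1 matrix per library, made by the authors with Cell Ranger 4.0.0 per the file headers, on mm10 per the submitters' processing notes. Barcodes with fewer than 200 genes or over 15% mitochondrial UMIs were removed, since the 1.2% stated in the study kept only 327 female and 359 male barcodes. Doublets were scored with Scrublet (scanpy 1.11.5), whose automatic threshold marked 2 and 10 barcodes, so the highest scores were removed at 0.8% per 1000 barcodes (124 and 52 barcodes). Clustering ran in R 4.3.3 on sctransform 0.4.2 values integrated by Seurat 5.3.0 (2000 features, 20 components, resolution 1), with 69 complement, MHC class II and sex-linked genes held out. Clusters were named from fixed marker lists, and the names are rebuilt here.

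Counts were summed per class and library. CPM carry exact Poisson, shares exact binomial (Clopper-Pearson) and ratios exact conditional 95% intervals (Python 3.11.15, scipy 1.17.1). With 1 library per sex no test across animals was possible. A gene was called past 1.5-fold (2-fold between classes) with an interval excluding 1, among genes with at least 50 UMIs. Shares used 1000 UMIs drawn per cell. Named were all 8 members, other listed complement genes with at least 100 CPM in both libraries in a class, and the genes most like each member, and a gene that met this rule is not reported here. Members and lists were chosen with earlier results of these data known. The counting code was tested on simulated data.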

Additional observations from a re-analysis of the deposited data

Results flagged for a closer look

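Several ratios pointed in opposite directions in the 2 libraries or in 2 classes, and none of these differences was tested. Between MHC class II low and high cells, C1qa was at a ratio of 1.07 in female and 0.892 in male other macrophages. In Lyve1-high macrophages the summed C1q ratio was 0.845 in the female and 1.16 in the male library, and that of C1qa 0.814 and 1.24.

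Between the sexes, C1q was at a female to male ratio of 3.76 in neutrophils and 0.298 in classical monocytes. In endothelial-like cells C1qa was at 1.34 and C1qb at 1.32, against 0.240 and 0.345 in classical monocytes. Each of these classes had a library in which 5 cells held most of the C1q UMIs (91.8% in female neutrophils, 78.0% in male classical monocytes, 91.1% in female endothelial-like cells).

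C1q was also present in barcodes outside the comparisons. Barcodes over the mitochondrial ceiling were at 2679 CPM in the female and 5145 CPM in the male library, and barcodes removed as doublets at 4009 and 6179 CPM. The unnamed cluster of low depth was at 9386 and 10476 CPM, above the 97.3 and 129 CPM of T and NK cells.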

How the results depend on the processing

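No paired analysis was possible because each sex had 1 library. The C1q female to male ratio in AGMs, 1.02, was 1.18 under the 1.2% mitochondrial ceiling, 1.04 without mitochondrial and ribosomal protein genes in the total, 0.997 with doublets kept, 0.988 under a per-cell marker gate and 0.933 with the same subset makeup. The C1q AGM to monocyte ratio was 23.0 (female) and 25.3 (male) under the 1.2% ceiling, 61.6 and 41.9 under the gate and 64.7 and 46.4 in monocytes with at most 4 macrophage markers, an alternative chosen after seeing the data. The male ratio was also 28.8 under the 5% ceiling, 9.80 with doublets kept, 25.2 with complement genes clustered and 18.6 as a mean over cells. The MHC class II low to high ratio of C1q in other macrophages was, in the female library, 0.963 under the 5% and 1.21 under the 1.2% ceiling, 0.864 under the gate, 1.06 with the boundary moved to the 95th percentile of lymphoid (T and NK) cells and 0.894 between the lowest and highest 25% of cells. In the male library it was 0.435 under the 1.2% ceiling, 0.759 with doublets kept, 0.631 under the gate, 1.03 as a mean over cells, 0.964 with the percentile boundary and 0.729 between the lowest and highest 25%. Members past 1.5-fold between the sexes in AGMs were 1 (Cfp) under the 1.2% ceiling and 1 (Cfp) with complement genes clustered. Members past 2-fold higher in AGMs than in monocytes, whose alternatives were chosen after seeing the data, were 3 of 3 tested in the female library under the 1.2% ceiling, against 7, and in the male library 5 to 7, with 7 when complement genes were clustered. Of the 16 highest classes (8 members in 2 libraries), 10 stayed under the 1.2% ceiling, which left no Lyve1-high cells, and 10 under the gate. Under the gate, Lyve1-high macrophages became highest for C1qa and C1qc in the male library and for C3ar1 in both. Of 50 levels of at least 100 CPM, 17 moved over 1.5-fold under the gate. Among them were all 3 C1q chains in Aldh1a2-high macrophages of both libraries and C4b in female Lyve1-high macrophages. C1qa and C1qb of male Aldh1a2-high macrophages also moved over 1.5-fold under the 1.2% ceiling. The cause of these shifts was not tested. Depth limits C2 and, outside Lyve1-high macrophages, C4b, and with 1 library per sex no difference between the sexes has a replicate check.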
